A study of Pyrus pyrifolia with 6 samples.

Results

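Lipid genes were compared between pulp of Akibae pear (Pyrus pyrifolia) from fruit given a boron application and pulp of control fruit. The genes are those whose description names a lipase or GDSL esterase, a lipid-transfer protein, a desaturase, a wax, oleosin, phospholipid, fatty acid, long-chain, acyl-CoA or acyl carrier protein, with cytochrome P450s and chloroplast- or mitochondrion-targeted proteins left out. There were 53 such genes among the 4291 genes that the authors had listed as different between the groups. Each group had 3 mRNA libraries, labelled boron application 1 to 3 and CK 1 to 3, all from fruit of the orchards of 1 university. No source used here gives the form and dose of boron, the nature of the control treatment or the stage of the fruit.

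Fruit cells make fatty acids in plastids and extend and modify them at the endoplasmic reticulum. Epidermal cells send part of them to the surface as the cutin and wax of the cuticle, carried in part by lipid-transfer proteins and joined or cut by GDSL-type esterases. Other lipases and phospholipases break down storage and membrane lipids, and peroxisomes degrade the fatty acids by beta-oxidation. Boron is best known in plants for cross-linking pectin in the cell wall.

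The wax and cutin part of the label was hardly met. Of the words that chose the genes, ECERIFERUM, fatty acyl and glycerol-3-phosphate acyl each took 0 genes, and wax took 1, a pseudogene. The word ketoacyl took 1 gene, a thiolase of beta-oxidation and not an elongating synthase. What the 53 genes held instead were 12 GDSL esterases, 8 lipid-transfer proteins, 9 phospholipases and other phospholipid proteins, 6 further lipases, and 18 genes of smaller groups. One of the 2 desaturases acts on sterols, and 1 of the phospholipid proteins is a peroxidase that removes lipid peroxides. No gene sequences are printed, because the deposited tables hold none.

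With the authors' size factors, boron-treated pulp had more mRNA for most of these genes and less for most of the abundant ones. Of all listed genes with a mean of at least 1000 normalized counts, 42.8% had a fold change above 0. With limma on log2(normalized count + 1), 41 of the 53 rose, 11 fell and 1, a peroxisomal thiolase, did not pass. Among all listed genes, 99.2% passed, 73.0% as rises and 26.2% as falls, so the counts are near those of the table they were drawn from. The authors had already selected the table on these libraries, so p-values here describe the size of a difference against the spread of the libraries and are no independent evidence. No listed gene had a deposited absolute log2 fold change below 1. The medians and the shares of groups apart given here are therefore bound by that selection. The groups did not overlap in 51 of the 53 genes, against 97.7% of all listed genes. The median log2 fold change (boron over control) was 1.90 for the 53 genes and 1.62 for all listed genes, and 1.90 also with the 2 genes at 0 reads in control fruit set to their lower bounds. Whether a group's replicates were different fruits or trees is not labelled, so p-values measure the spread between these libraries, which may be technical. In bulk pulp, fewer cells of a type and less RNA per cell cannot be told apart.

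How many genes count as higher depends on the scaling. Scalings made from the listed genes alone moved the median of all listed genes by -1.40 (TMM), -1.35 (DESeq2-type) and -1.25 (quantile), and relative to that median the 53 genes lay 0.28 higher with the authors' size factors. With TMM 20 of the lipid genes were higher and 12 lower, with DESeq2-type factors 21 and 12, and with quantile normalization 23 and 11. Of all listed genes, 33.4% were then higher and 28.9% lower with TMM, 34.6% and 28.3% with DESeq2-type factors, and 35.5% and 26.7% with quantile normalization. A second deposited table holds a signal-to-noise score for 42194 genes, and in 4070 listed genes it could be recomputed from the libraries' normalized counts within 6.1e-07. Of its unlisted genes with a score other than 0, 50.8% had a score above 0, and their median score was 0.020. As far as it could be recomputed, the score rests on counts already divided by the authors' size factors. Unlisted genes are also those that were not called, so their centre near 0 cannot decide between the scalings. Directions below are with the authors' size factors, and each gene whose sign turned under another scaling is named as such.

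**Figure D1:**
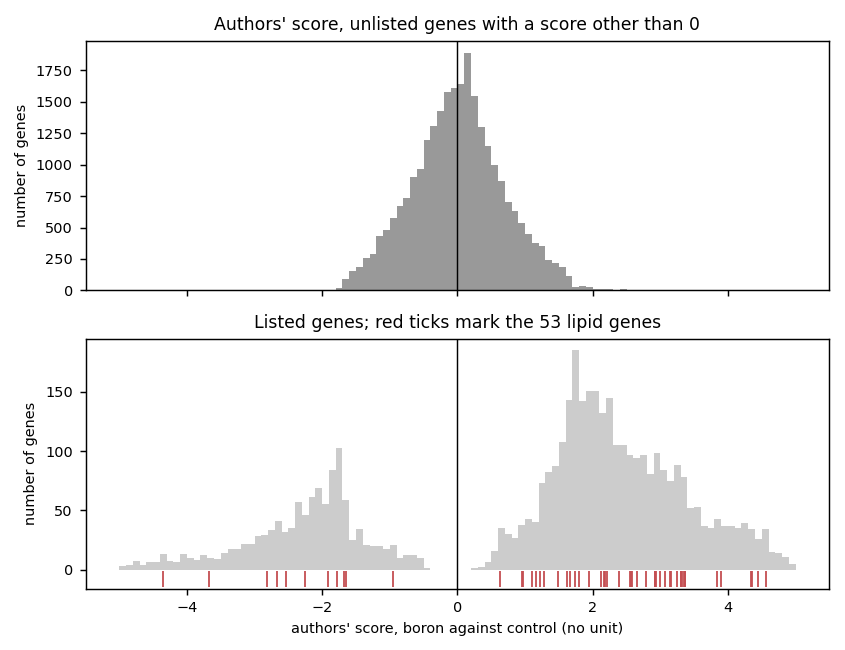
Histograms of the authors' score of boron against control, which has no unit, for unlisted genes with a score other than 0 (top) and for the listed genes (bottom), with red ticks for the 53 lipid genes. The unlisted genes centre near 0, with a median of 0.020, while the lipid genes lie on both sides, between -4.36 and 4.56.

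The level of a gene in control fruit went with its direction, but that level is also the base of the fold change. Sorting genes by it therefore favours falls at high levels. All 5 lipid genes with a control mean of at least 1000 normalized counts fell: triacylglycerol lipase 2, a sterol desaturase, an acyl-CoA-binding protein, the fatty acid desaturase FAD2 and a lipid peroxidase. The share of all listed genes that fell at this control cut was not computed. By the mean of the 6 libraries, 25 of 30 genes under 100, 16 of 17 between 100 and 1000, and 1 of 6 from 1000 upwards had a fold change above 0. Over all listed genes the same shares were 80.5%, 67.1% and 42.8%, so the turn with level was present in the whole table. For sums, the genes were split by the sign of this same fold change, so the direction of each split sum was fixed in advance. Summed over the 42 genes with a fold change above 0, control libraries held 2920.1 ± 51.4 and boron libraries 11005 ± 150 normalized counts (SD, n = 3). Summed over the 11 others, the values were 14404 ± 860 and 4880 ± 166. The sum of all 53 genes was thus 15885 ± 238 in boron and 17324 ± 823 in control libraries, although most single genes rose.

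**Figure D2:**
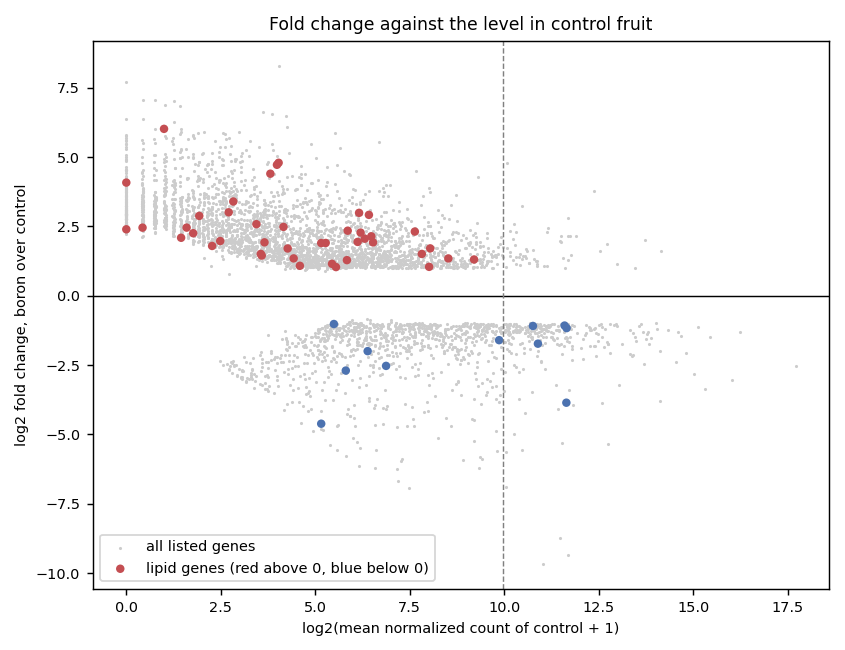
Fitted log2 fold change of boron over control against the mean level in control fruit, as log2(normalized count + 1), for all listed genes (grey) and the 53 lipid genes (red above 0, blue below 0). To the right of the dashed line, at 1000 normalized counts in control fruit, all 5 lipid genes lie below 0. The control level is also the base of the fold change, which favours falls on that side.

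**Figure D3:**
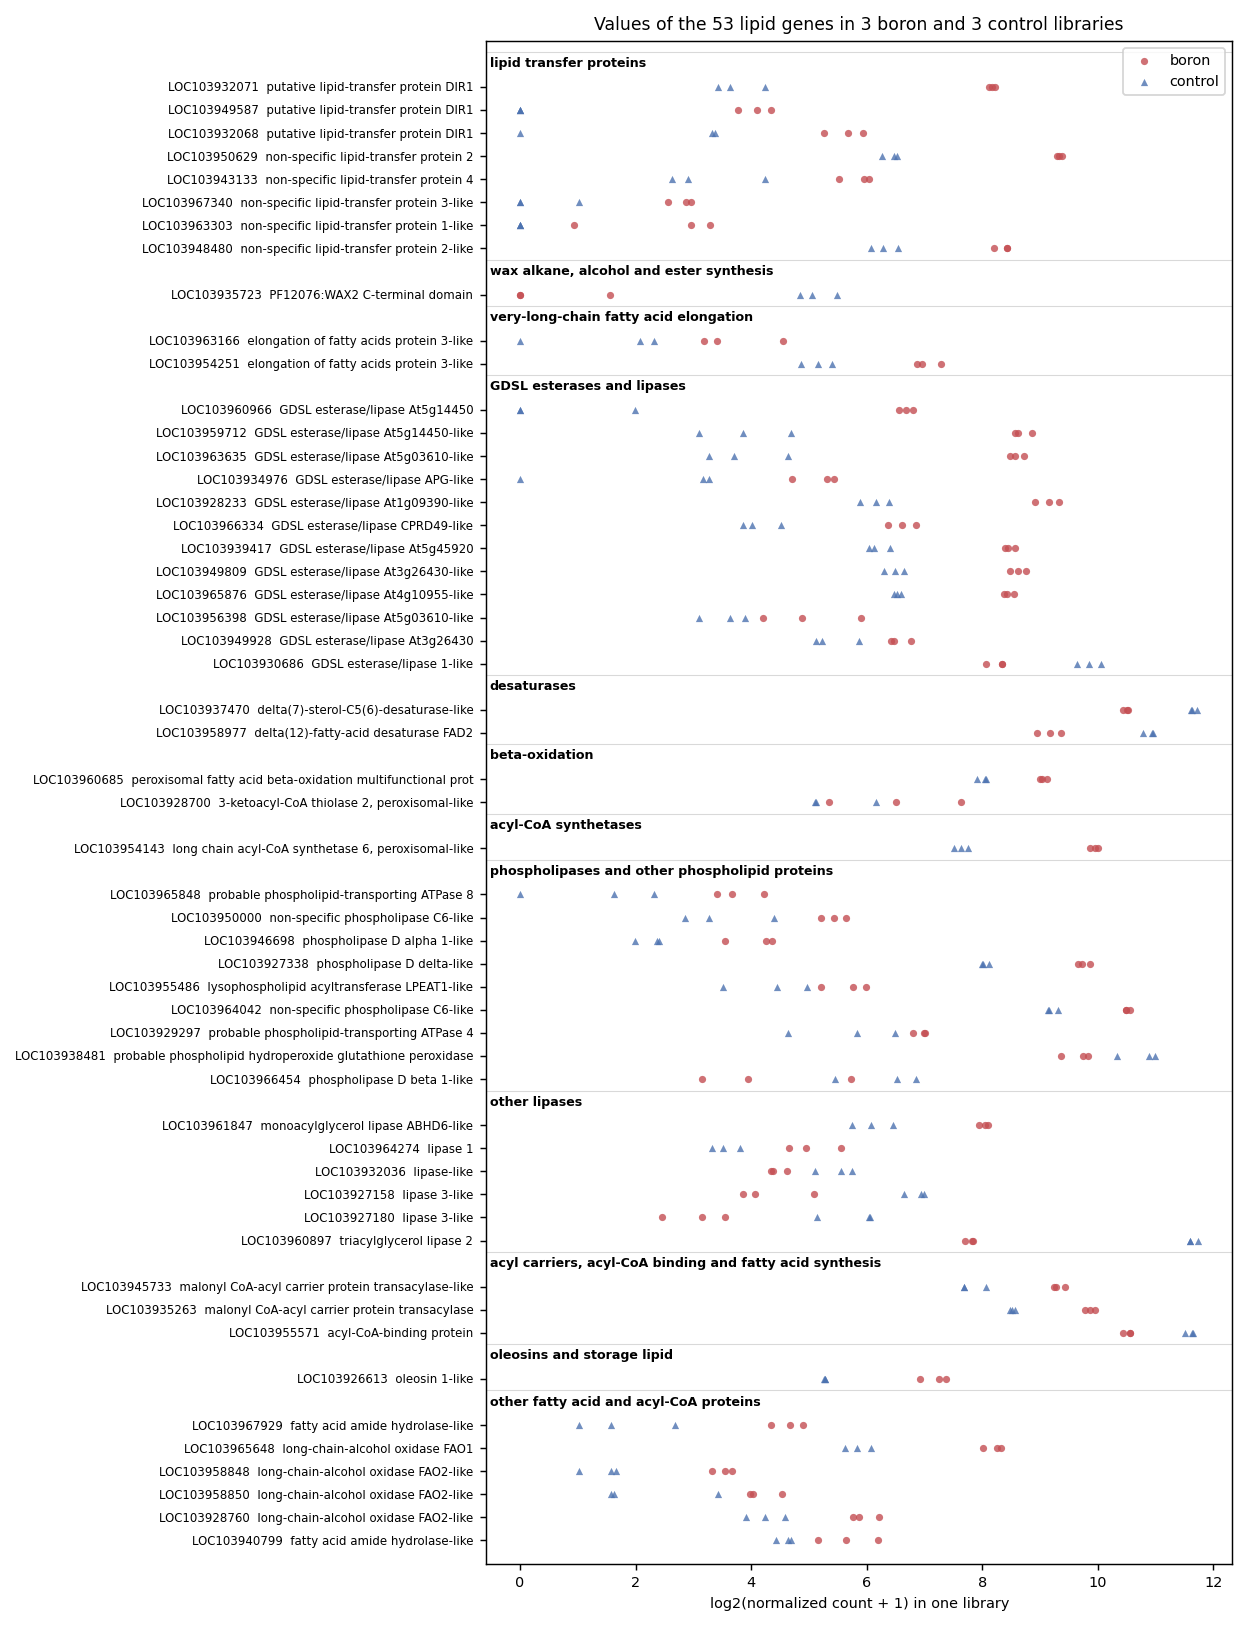
Each of the 53 lipid genes in every library, as log2(normalized count + 1), with boron libraries as circles and control libraries as triangles, ordered by role. The groups are apart in 51 genes, and the exceptions are the 3-ketoacyl-CoA thiolase 2 gene and the phospholipase D beta 1 gene.

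Lipid-transfer proteins are small secreted proteins that bind lipids in a cavity and are thought to move them through the wall. All 8 listed genes rose, with a median log2 fold change of 2.75, and 7 of them still rose with TMM, while with quantile normalization 5 rose and 1, the protein 3-like gene LOC103967340, took the opposite sign. Together they held 1391 ± 39.8 normalized counts in boron libraries and 192 ± 31.0 in control libraries (SD, n = 3). Of the 8, 3 are described as DIR1, a protein needed in Arabidopsis for systemic acquired resistance, a defence signal that spreads through the plant.

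The DIR1 gene LOC103932071 had 277, 287 and 296 normalized counts in boron libraries 1 to 3 and 17.9, 11.4 and 9.72 in control libraries 1 to 3. Every boron library was thus far above every control library. On the log2 scale the difference was 4.40 ± 0.25 (SE; limma, adjusted p = 5.87e-08). Its neighbour LOC103932068 lies 6319 bases away on the same strand of scaffold NW_008988579.1 (209821 to 210441, against 216761 to 217390). It had 50.4, 60.4 and 37.3 against 8.97, 9.37 and 0, and its call was lost with TMM, DESeq2-type and quantile scaling (limma, adjusted p = 0.067, 0.0605 and 0.0516). The remaining DIR1 gene, LOC103949587, had 19.4, 16.2 and 12.8 normalized counts and 0 reads in every control library, which is at least 15.5-fold higher, with a floor of 3 reads over the control group. The 3 share a description, and how reads that fit more than 1 of them were assigned is not stated, so their separate values are uncertain.

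Non-specific lipid-transfer protein 2 (LOC103950629), the most abundant lipid-transfer gene per kilobase by the mean of the 6 libraries, had 662, 640 and 627 normalized counts in boron libraries and 90.7, 87.4 and 75.6 in control libraries. The groups were far apart, and the log2 difference was 2.92 ± 0.13 (limma, adjusted p = 7.3e-09). This gene overlaps 2 other listed genes, 1 of them a kinesin on the opposite strand, and whether counting used strand is not stated, so its reads cannot be told from theirs. The protein 2-like gene LOC103948480 had a mean of 327 ± 29.6 against 78.3 ± 12.6, and the protein 4 gene LOC103943133 had 57.0 ± 10.5 against 9.88 ± 7.02. The remaining genes were scarce. LOC103967340 had 19 reads after boron and 1 in control fruit, which is a ratio of 17.4 (95% counting interval 2.76 to 722). LOC103963303 (protein 1-like) had 17 reads against 0, at least 5.30-fold higher, and 1 boron library held a single read (0.902 normalized counts). Intervals and floors cover counting error only.

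GDSL esterases and lipases are a large plant family of serine hydrolases, in which some members polymerise cutin and others act on other esters. Of 12 listed genes 11 rose and 1 fell, against 8 and 1 with TMM and with quantile normalization. The sign turned in LOC103949928 with TMM and DESeq2-type scaling and in LOC103956398 with quantile normalization. The median log2 fold change of the 12 was 2.38, and their sum was 3125 ± 205 in boron and 1361 ± 106.2 in control libraries.

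The largest rise was that of LOC103960966, similar to Arabidopsis At5g14450, with 93.0, 102 and 111 normalized counts in boron libraries. Its control libraries held 2.99, 0 and 0. With 322 against 3 reads, boron fruit held 98.2 times the control level (counting interval 33.3 to 478). A second gene similar to At5g14450 (LOC103959712) had 376, 464 and 392 against 24.9, 13.5 and 7.56. Both genes similar to At5g14450 were therefore low in control fruit and clearly present after boron. How reads that fit both were assigned is not stated, so their separate values are uncertain. An At5g03610-like gene (LOC103963635) behaved alike, with 420, 380 and 355 against 11.97, 23.9 and 8.64, or 4.72 ± 0.32 on the log2 scale (limma, adjusted p = 1.85e-07). The other At5g03610-like gene (LOC103956398) differed less, with 17.4, 58.6 and 28.5 against 14.0, 11.4 and 7.56. Its highest boron library decided the call: without boron library 2 the log2 fold change was 1.00 and the adjusted p 0.0738 (limma).

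Further GDSL genes rose by moderate amounts. LOC103928233 (At1g09390-like) was the most abundant of the risers per kilobase, with 564 ± 81.4 against 70.4 ± 11.9 normalized counts. LOC103939417 (At5g45920) had 353 ± 22.6 against 72.5 ± 10.04, and LOC103965876 (At4g10955-like) 349 ± 22.4 against 91.3 ± 4.16. Lower levels were found in LOC103966334 (CPRD49-like), with 97.7 ± 16.5 against 16.9 ± 4.47, and in LOC103934976 (APG-like), with 35.4 ± 8.97 against 5.54 ± 4.81. The APG-like call was lost with all 3 of the other scalings. The At3g26430 genes LOC103949809 and LOC103949928 lie on the same strand of scaffold NW_008988106.1 (101946 to 111831 and 111749 to 116523) and overlap there by 83 bases. The first had 393 ± 36.6 against 88.5 ± 10.6, and the second 93.6 ± 12.8 against 42.5 ± 12.8.

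The single GDSL gene that fell was also the most abundant of the family per kilobase in control fruit. GDSL esterase/lipase 1-like (LOC103930686) had 325, 323 and 268 normalized counts in boron libraries against 801, 925 and 1067 in control libraries. Every control library lay above every boron library, and the log2 fold change was -1.60 ± 0.13 (limma, adjusted p = 6.73e-07). Per kilobase of gene length its mean was 693 in control and 227 in boron fruit, while LOC103928233 reached 50.6 and 406.

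**Figure D4:**
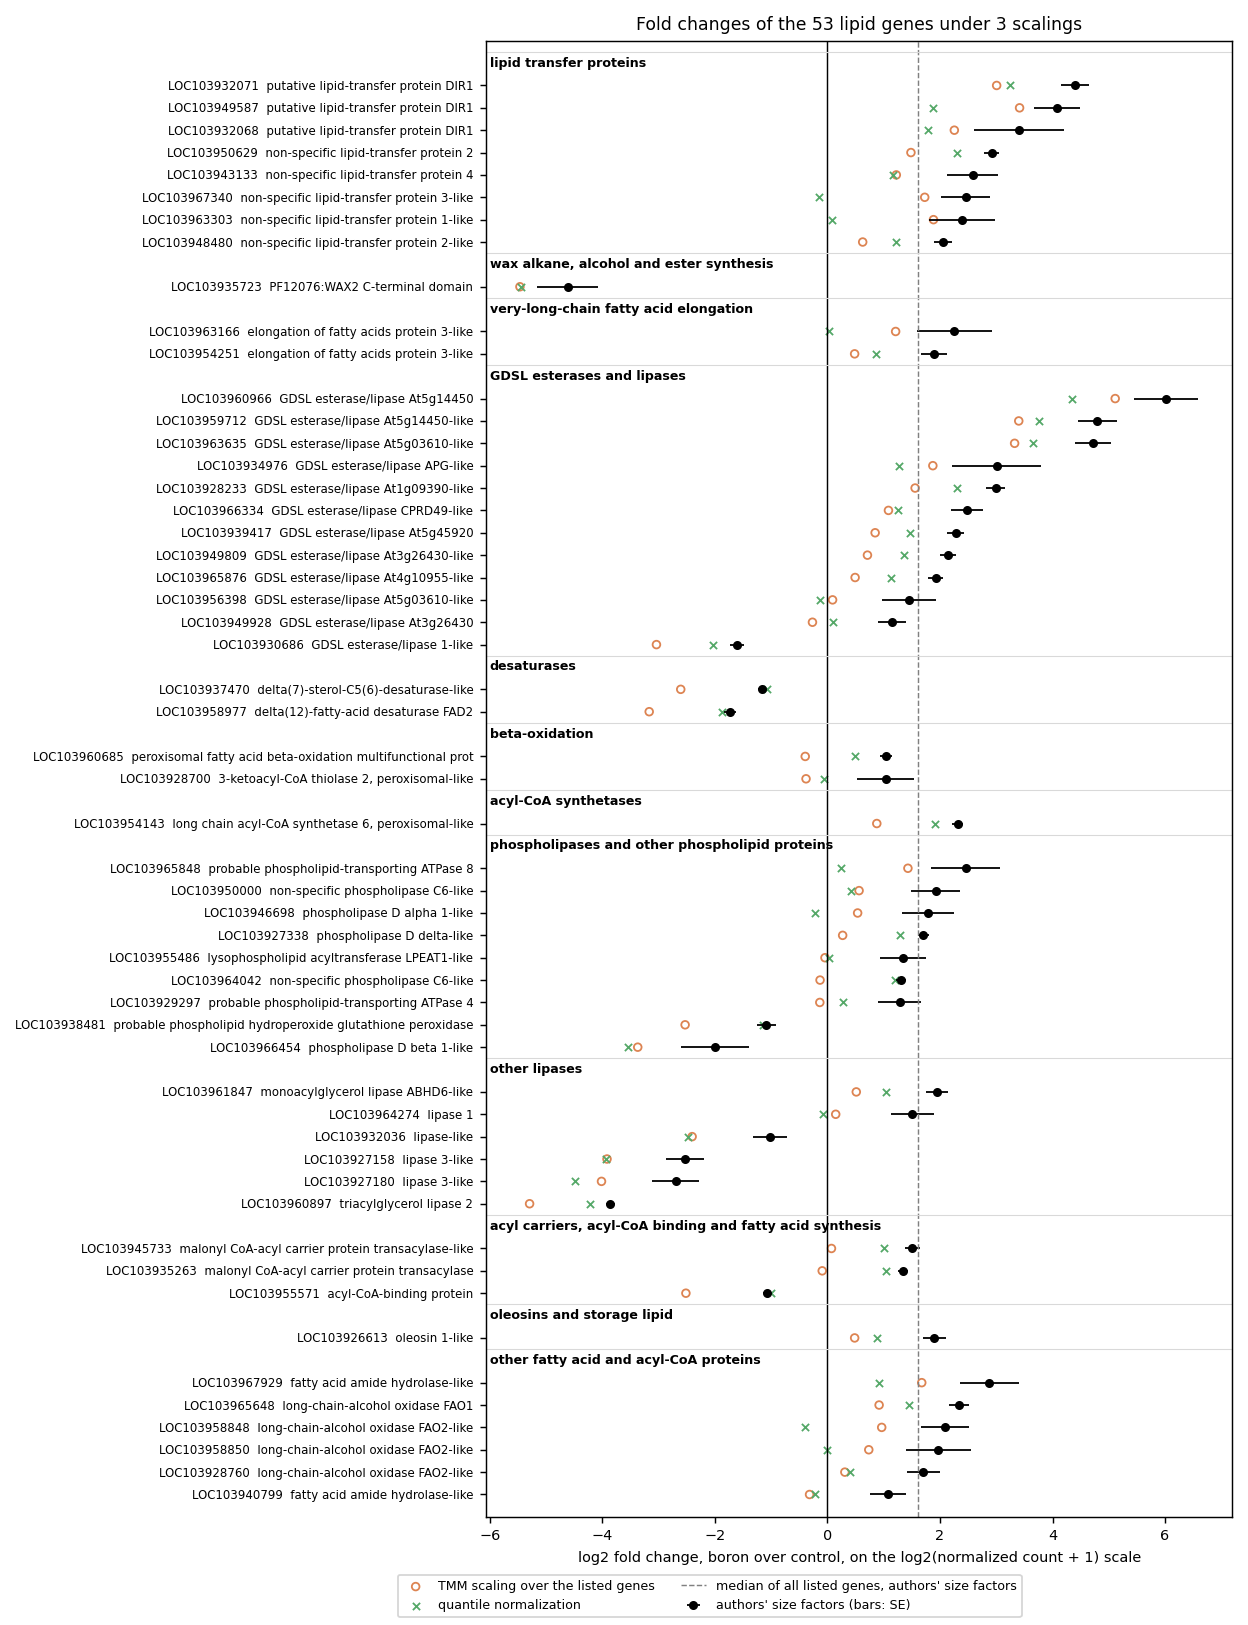
Fitted log2 fold change of boron over control for each of the 53 lipid genes, with the authors' size factors (black, bars are SE), TMM scaling (open circles) and quantile normalization (crosses), with the median of all listed genes, 1.62, as a dashed line. All 11 falls keep their side of 0, whereas 14 genes with a fold change above 0 cross it in TMM, DESeq2-type or quantile scaling.

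Lipases outside the GDSL family went mostly the other way, with 4 falls and 2 rises of 6 genes. The counts were 4 and 1 with TMM, and lipase 1 took the opposite sign with quantile normalization. Triacylglycerol lipase 2 (LOC103960897, scaffold NW_008988240.1, 140525 to 146169), of the enzymes that release fatty acids from storage fat, had the largest difference of all 53 genes against its spread. It had 228, 224 and 207 normalized counts in boron libraries and 3076, 3096 and 3424 in control libraries. Control fruit thus held 14.6 times the level of boron fruit. The log2 fold change was -3.86 ± 0.08 (limma, adjusted p = 7.96e-11), and it was -5.29 with TMM.

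A pair of lipase 3-like genes on scaffold NW_008988413.1 fell as well. LOC103927158 had 32.95, 13.5 and 15.7 against 99.7, 127 and 122 normalized counts, and LOC103927180, which lies 300741 bases away, had 10.7, 4.51 and 7.85 against 64.8, 34.3 and 65.9. Both were lower in every boron library. The lipase-like gene LOC103932036 fell from 44.0 ± 9.80 to 20.9 ± 2.29. Monoacylglycerol lipase ABHD6-like (LOC103961847), named after an animal enzyme that cleaves the last fatty acid from glycerol, was the main exception. It had 245, 265 and 274 against 52.8, 66.6 and 86.4, a rise of 1.94 ± 0.19 on the log2 scale (limma, adjusted p = 4.32e-06). Lipase 1 (LOC103964274) rose from 10.8 ± 2.02 to 33.4 ± 11.4.

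Both desaturases fell under every scaling. FAD2 (LOC103958977) is the enzyme of the endoplasmic reticulum that turns oleic into linoleic acid. It had 574, 493 and 659 normalized counts in boron libraries and 1764, 1974 and 1956 in control libraries. The groups were well apart, and the log2 difference was -1.73 ± 0.11 (limma, adjusted p = 1.09e-07). The gene similar to delta(7)-sterol-C5(6)-desaturase (LOC103937470), which acts in sterol synthesis, had 1449, 1465 and 1377 against 3350, 3120.1 and 3172, with -1.17 ± 0.07 on the log2 scale (limma, adjusted p = 4.88e-08).

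Genes for carriers and early steps of fatty acid synthesis split by role. The acyl-CoA-binding protein gene (LOC103955571), whose product holds and carries activated fatty acids in the cell, was the most abundant lipid gene per kilobase, at 2670 in boron and 5629 in control fruit. Its normalized counts were 1514, 1384 and 1507 against 2929, 3162 and 3197. It fell in every boron library, and the log2 difference was -1.08 ± 0.07 (limma, adjusted p = 1.53e-07). Malonyl CoA-acyl carrier protein transacylase loads the building block of fatty acid synthesis onto its carrier. One such gene (LOC103935263) rose from 357, 365 and 377 to 988, 934 and 877, but its sign turned with TMM and DESeq2-type scaling. The other (LOC103945733) rose from 265, 205 and 204 to 605, 691 and 616, a call that was lost with those scalings.

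The plastid genes of fatty acid synthesis, which the choice of genes had left out, were 7 rises and 1 fall among 8 listed, against 2 and 3 with TMM. Of these, 3 genes similar to enoyl-ACP reductase, the enzyme of the last reduction in each round of chain growth, rose, from 198 ± 24.2 to 1070.1 ± 33.5 in LOC103959004, from 150 ± 6.96 to 532 ± 22.1 in LOC103964860 and from 178 ± 14.8 to 542 ± 66.4 in LOC103940555. The call of LOC103940555 was lost with TMM and DESeq2-type scaling (limma, adjusted p = 0.293 and 0.19). The gene that fell was similar to stearoyl-ACP desaturase 6 (LOC103939571), of the enzymes that make the first double bond, with 837 ± 24.4 in control and 121 ± 11.8 in boron fruit. It fell under every scaling, as did FAD2. These plastid genes, and those of the other pathway lists named below, were picked after their values were seen.

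Of the peroxisomal path of fatty acid breakdown, the gene for the activating enzyme rose. Long chain acyl-CoA synthetase 6 (LOC103954143), which in Arabidopsis activates fatty acids for beta-oxidation, had 934, 994 and 1026 normalized counts in boron libraries and 215, 181 and 197 in control libraries. Its log2 fold change was 2.31 ± 0.10 (limma, adjusted p = 1e-08), and it rose under all scalings. The AIM1-like multifunctional gene (LOC103960685), for the middle steps, had 555, 526 and 509 against 264, 267 and 240. This rise turned into a fall with TMM (-0.39) and DESeq2-type scaling (-0.35). The 3-ketoacyl-CoA thiolase 2 gene (LOC103928700), for the last step, was the single gene that did not pass. It had 90.1, 39.7 and 196 against 33.9, 33.3 and 70.2, and the groups overlapped (log2 fold change 1.03 ± 0.51, limma, adjusted p = 0.0684). It passed without boron library 2 (adjusted p = 0.00688) or control library 3 (0.0349), and on recovered reads with edgeR (0.0199). Its sign turned with TMM (-0.38), DESeq2-type scaling (-0.34) and quantile normalization (-0.061).

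Genes for acyl-CoA oxidase, the enzyme of the first step in the peroxisome, were not among the 53 because their descriptions spell out coenzyme A. LOC103967012 fell from 639 ± 37.6 to 154 ± 30.9 and LOC103937274 from 463 ± 80.5 to 150 ± 21.9. Another acyl-CoA oxidase gene, LOC103936080, had 407 ± 330 in control and 79.0 ± 34.8 in boron libraries and did not pass (limma, adjusted p = 0.0698). It passed as a fall without control library 2 (limma, adjusted p = 6.67e-05) or boron library 2 (0.0379), and with a pseudocount of 0.5 (0.0376). The same held with TMM, DESeq2-type and quantile scaling (limma, adjusted p = 0.00431, 0.00422 and 0.0149). On recovered reads it passed with edgeR (adjusted p = 0.00168) and DESeq2 (adjusted p = 0.0117). In the whole list of peroxisome and glyoxylate cycle genes, 6 of 14 rose, 7 fell and 1 did not pass, or 3 and 8 with TMM.

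Phospholipases and other phospholipid proteins had 7 rises and 2 falls among 9 genes, but with TMM and DESeq2-type scaling only 1 rise remained beside the 2 falls. Phospholipase D delta-like (LOC103927338), of the enzymes that make phosphatidic acid from membrane lipids, had 843, 926 and 810 normalized counts in boron libraries against 253, 278 and 256 in control libraries. It rose under all scalings and was 1.71 ± 0.10 on the log2 scale with the authors' factors (limma, adjusted p = 6.49e-08). A gene similar to non-specific phospholipase C6 (LOC103964042) was more abundant per kilobase, with 1454 ± 40.8 against 588 ± 39.2, but its sign turned with TMM and DESeq2-type scaling. The second gene of that description (LOC103950000) had 42.4 ± 6.60 against 11.6 ± 7.32.

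The falls in this group were those of a peroxidase and of another phospholipase D. The probable phospholipid hydroperoxide glutathione peroxidase (LOC103938481), an antioxidant enzyme, had 852, 910 and 657 normalized counts in boron libraries and 1290, 1885 and 2024 in control libraries. Its groups were apart, and the log2 difference was -1.09 ± 0.17 (limma, adjusted p = 0.000113). Phospholipase D beta 1-like (LOC103966454) had 52.3, 14.4 and 7.85 against 42.9, 90.5 and 114, so that 1 boron library lay above 1 control library (limma, adjusted p = 0.00744). With the replicate numbers as a block, that adjusted p was 0.0562. The lesser rises were those of the phospholipid-transporting ATPases 8 (LOC103965848, 13.0 ± 4.14 against 2.02 ± 1.99) and 4 (LOC103929297, 122 ± 10.3 against 56.2 ± 32.3), which flip lipids across membranes, of the lysophospholipid acyltransferase LPEAT1-like gene (LOC103955486, 50.7 ± 13.6 against 20.5 ± 9.92) and of phospholipase D alpha 1-like (LOC103946698, 16.1 ± 4.78 against 3.82 ± 0.726). Under the other scalings none of these 4 passed, and the sign turned in ATPase 4 with TMM and DESeq2-type scaling, in LPEAT1-like with TMM and in phospholipase D alpha 1-like with quantile normalization.

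In the list of other membrane lipid genes, 4 of 5 fell and 1 rose, and with each of the other scalings 4 fell and 0 rose. Among them, a CDP-diacylglycerol-serine phosphatidyltransferase gene (LOC103948159), for a step that makes phosphatidylserine, fell from 277 ± 34.5 to 57.5 ± 6.17. A putative phosphatidylglycerol/phosphatidylinositol transfer protein gene (LOC103952734) fell from 1159 ± 153 to 342 ± 35.5. The gene that rose was that of a CDP-diacylglycerol synthase (LOC103964556), from 10.9 ± 6.98 to 35.5 ± 23.9, with overlapping groups and the opposite sign under quantile normalization. Its call was lost without boron library 2 or 3 or control library 2 or 3 (limma, adjusted p = 0.17, 0.0994, 0.113 and 0.0896).

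The remaining fatty acid proteins all rose, 6 of 6, although with TMM 2 rose and none fell. Long-chain-alcohol oxidases turn fatty alcohols into aldehydes. FAO1 (LOC103965648) had 257, 303 and 318 normalized counts in boron libraries and 55.8, 66.6 and 48.6 in control libraries, and the log2 difference was 2.34 ± 0.18 (limma, adjusted p = 4.86e-07). The FAO2-like genes were much scarcer, with boron means of 61.3 ± 10.8 (LOC103928760), 17.4 ± 4.21 (LOC103958850) and 10.5 ± 1.39 (LOC103958848). Their control means were 18.3 ± 4.44, 4.60 ± 4.44 and 1.73 ± 0.604. The last pair are neighbours on scaffold NW_008988207.1, 4246 bases apart, and both took the opposite sign with quantile normalization. Fatty acid amide hydrolase-like genes, of the enzymes that degrade N-acylethanolamines, rose from 2.81 ± 2.29 to 24.3 ± 4.74 (LOC103967929) and from 23.1 ± 2.31 to 52.1 ± 19.1 (LOC103940799), the second with the opposite sign under all 3 other scalings.

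The single wax entry was a pseudogene with a WAX2 C-terminal domain (LOC103935723), a domain of a protein that in Arabidopsis takes part in making wax alkanes. It had 27.9, 43.7 and 32.4 normalized counts in control libraries and 1.94, 0 and 0 in boron libraries. With 100 against 2 reads control fruit held 54.7 times the boron level (counting interval 14.7 to 458). Both genes described as elongation of fatty acids protein 3-like, of a family that in yeast and animals lengthens fatty acids, rose. LOC103954251 had 116, 155 and 124 against 34.9, 28.1 and 41.0, and LOC103963166 had 9.69, 8.11 and 22.6 against 3.99, 0 and 3.24. Neither passed with TMM. The oleosin 1-like gene (LOC103926613), for a coat protein of oil bodies, had 164, 151 and 120 against 37.9, 37.5 and 37.8, which is 1.90 ± 0.20 on the log2 scale (limma, adjusted p = 6.99e-06). With TMM the oleosin call was lost (limma, adjusted p = 0.0549).

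The list of cuticle genes outside the choice of genes held 3 genes, although the P450 among them is named after a suberin enzyme. All 3 rose under every scaling. The exporters ABC transporter G family member 11-like (LOC103936479) and 32-like (LOC103960664), whose Arabidopsis counterparts carry cuticle lipids out of the epidermis, rose from 2.41 ± 0.504 to 185 ± 21.3 and from 8.70 ± 4.41 to 85.7 ± 22.4. Cytochrome P450 86B1-like (LOC103945558), named after an Arabidopsis enzyme of suberin synthesis, rose from 296 ± 8.84 to 976 ± 76.4, and this gene is also the single gene on the list for suberin that was higher.

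Markers of other tissues moved in the same libraries. Of 48 listed genes of green tissue, 47 were higher in boron fruit (43 with TMM and DESeq2-type scaling, 41 with quantile normalization), and their summed level ran from 9236 to 10217 normalized counts in boron and from 1614 to 1693 in control libraries, with 6 of them at 0 reads in all control libraries. Of 18 genes on the list for epidermis and stomata, 16 were higher and 2 lower (1384 to 1419 against 491 to 571, with 2 at 0 in control). With the other scalings 9 (TMM and DESeq2-type) or 11 (quantile) were higher and 2 lower. Most are trichome birefringence-like proteins, which act on wall polymers in many tissues. Those lower were homeobox-leucine zipper protein GLABRA 2-like (LOC103944856, log2 fold change -1.52) and a trichome birefringence-like 43 gene (LOC103955119, -2.88). All 5 vascular markers were higher (580 to 666 against 144 to 163, none at 0), and 3 with each of the other scalings. Seed markers were 4 higher and 1 lower of 5 (1741 to 1925 against 2272 to 2552, none at 0), with 3 higher in TMM and DESeq2-type scaling and 2 with quantile normalization. Of 3 genes on the list for suberin 1 was higher and 2 were lower under all scalings (1844 to 2010 against 2058 to 2471, none at 0). The lower ones were cytochrome P450 94A2-like (LOC103938590, log2 fold change -1.01) and 94A1-like (LOC103966291, -2.22). Both were taken into that list by name alone, and whether they mark suberin was not tested. The part of these tissues in the values of the lipid genes was not tested.

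The 6 libraries held 1914312 to 2056668 reads in the listed genes, of which the lipid genes took 0.807% to 0.874%. In boron libraries 0 to 1 of the 53 genes were at 0 reads, and in control libraries 3 to 6. The median coefficient of variation over libraries was 14.4% in boron and 22.5% in control fruit.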

How the data were processed

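Libraries were made from pulp RNA with an NEBNext Ultra kit, per the labels' protocols, and the submitters' processing notes list HISAT2. For the read counter, strand use, genome build and statistical test, no source used here gives a name. The library values (signal) that the authors deposited are gene counts divided by 1 size factor per library (0.926 to 1.11), and whole reads came back from all values within 5.48e-06. The deposited log2 fold changes (at least 1 in absolute value) and adjusted p-values (at most 0.0499) show that called genes alone are listed. The score that the authors deposited for 42194 genes matched the difference of group means over the sum of SDs, each SD being at least 0.2 of its mean, in the 4070 listed genes with both means above 0. For genes with a group at 0 its formula was not recovered.

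Here limma 3.58.1 (R 4.3.3, trend and robust, two-sided) was run on log2(normalized count + 1) over all listed genes, with p-values adjusted by Benjamini-Hochberg and called below 0.05, and was tested on simulated data. Fold changes on this scale understate the change of low genes. The design had foreseen this unit. Counts per kilobase use the deposited gene length. Alternatives were other scalings, pseudocounts, filters, edgeR 4.0.16, DESeq2 1.42.0, a replicate block and leaving out each library. Counting intervals are exact (conditional binomial, SciPy 1.17.1).

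The rule for named genes took, in each role group, the largest rise and fall with a mean of at least 100 normalized counts and the most abundant gene per kilobase, or all genes of groups of up to 3, which gave 21 genes. The other 32 are given to account for every gene. The genes, lists and rules were chosen with earlier results of these data known.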

Additional observations from a re-analysis of the deposited data

How the results depend on the processing

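With TMM, DESeq2-type and quantile scaling, 20, 21 and 23 lipid genes were higher, against 41 with the authors' size factors, and the median log2 fold change was 0.49, 0.54 and 0.42, against 1.90. A filter at a mean of 100 normalized counts left 17 higher and 6 lower, because fewer genes were tested, and a pseudocount of 5 gave a median of 1.33. With TMM the fold changes that took the opposite sign were those of LOC103964042 (-0.13), LOC103935263 (-0.092), LOC103960685 (-0.39), LOC103949928 (-0.27), LOC103929297 (-0.14), LOC103955486 (-0.043), LOC103940799 (-0.32) and LOC103928700 (-0.38). With DESeq2-type scaling they were those of LOC103964042 (-0.086), LOC103935263 (-0.048), LOC103960685 (-0.35), LOC103949928 (-0.22), LOC103929297 (-0.091), LOC103940799 (-0.27) and LOC103928700 (-0.34). With quantile normalization they were those of LOC103964274 (-0.080), LOC103956398 (-0.12), LOC103940799 (-0.22), LOC103928700 (-0.061), LOC103946698 (-0.22), LOC103958848 (-0.40), LOC103958850 (-0.0015) and LOC103967340 (-0.15), and outside the 53 genes that of LOC103964556 (-0.17). TMM and DESeq2-type scaling take most of the selected genes to be unchanged, and quantile normalization gives all libraries the same distribution of values. Further calls, 14, 14 and 11 of the 53, were lost under TMM, DESeq2-type and quantile scaling without a change of sign. Leaving out each library gave 41 to 42 higher and 11 lower genes, and a median of 1.76 to 1.94. The replicate numbers did not pair the libraries: same-numbered libraries had correlations of deviations of -0.096, 0.0045 and -0.11 over 1686 genes, and no library correlated best with its own number. The replicate block gave 42 higher and 10 lower genes. edgeR and DESeq2 on recovered reads each called all 53 genes, and also 100% of the 4291 listed genes.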

Other observations

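Oxylipin genes, whose enzymes make jasmonate and related signals from fatty acids, were 7 rises and 4 falls among 11 listed, or 4 and 4 with TMM. Allene oxide cyclase 4 (LOC103947146), an enzyme of jasmonate synthesis, rose from 133 ± 8.98 to 649 ± 35.7 normalized counts (SD, n = 3), and a 9S-lipoxygenase gene (LOC103956622) rose from 15.2 ± 2.73 to 110 ± 4.55. The 4 falls were those of all 3 listed genes described as allene oxide synthases and of a 13S-lipoxygenase gene. Of the synthase genes, LOC103937560 and LOC103930300 are described as allene oxide synthase 3-like. Whether their products act in the step before the cyclase was not tested. The synthase genes fell from 84.9 ± 12.01 to 24.8 ± 5.73 (LOC103937560), from 56.9 ± 5.49 to 17.9 ± 5.15 (LOC103942464) and from 17.96 ± 11.7 to 4.51 ± 3.07 (LOC103930300, a call lost without boron library 1 or 2 or control library 3, with limma adjusted p = 0.0504, 0.0887 and 0.0779), and 13S-lipoxygenase 3-1 (LOC103941411) fell from 63.9 ± 8.30 to 25.7 ± 10.7. These 6 genes kept their sign under TMM, DESeq2-type and quantile scaling. The other listed 13S-lipoxygenase genes, all named 2-1, rose. LOC103954907 went from 186 ± 19.9 to 433 ± 24.7, with the opposite sign under TMM (-0.22) and DESeq2-type scaling (-0.17). LOC103954602 went from 0 to 18.4 ± 10.04 and LOC103954616 from 0 to 8.48 ± 2.07, and both kept their sign.

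Sterol and triterpene genes were 10 rises, 7 falls and 1 without a call among 18, or 1 rise and 9 falls with TMM. A beta-amyrin synthase gene (LOC103967646), for the ring closure that starts a class of triterpenes, rose from 27.5 ± 7.93 to 296 ± 31.6, while the other such gene (LOC103927760) fell from 244 ± 10.3 to 88.2 ± 7.97. A gene with a squalene-hopene cyclase domain (LOC103967681) fell from 357 ± 78.4 to 151 ± 17.1. A squalene synthase-like gene (LOC103966922), for a precursor of sterols and triterpenes, fell from 1611 ± 151 to 736 ± 72.7.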
